A study of Mus musculus with 6 samples.

Results

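The cells described here are jejunal epithelial cells of mice with the highest content of major histocompatibility complex (MHC) class II RNA, of which 1147 of 1183 were led by enterocyte markers. They were chosen among barcodes called as cells with at least 750 genes, at most 20% mitochondrial unique molecular identifiers (UMIs, the tags that mark each captured RNA molecule), at least 1 UMI of the epithelial gene *Epcam*, less than 2% of UMIs from *Lyz1* and no UMI of the immune genes *Cd3e*, *Cd3g*, *Ptprc* or *Cd79a*. The UMIs of *H2-Aa*, *H2-Ab1*, *H2-Eb1* and *Cd74* were summed as a share of all UMIs of the cell, and the top 5% of eligible cells over all 6 libraries were selected on this share, which gave 1183 of 23672 eligible cells among 59457 called barcodes. Because these 4 genes chose the cells, their levels in the chosen cells are a description and not a finding. The lowest chosen cells held 25.83, 25.86 and 25.88 UMIs of the 4 genes per 10,000 UMIs, and the highest cells left out held 25.82, 25.81 and 25.81.

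The mice were male C57BL/6J, about 30 weeks old, fed a low-fat diet (LFD) or a high-fat diet (HFD) for 16 weeks before surgery and again after it, and fasted overnight before tissue was taken 5 weeks after sham surgery or vertical sleeve gastrectomy (VSG), which removes a large part of the stomach. Jejunal cells were pooled within each group, from 3 mice for LFD sham, 3 for HFD sham and 2 for HFD VSG, and each pool gave 1 crypt-labelled and 1 villus-labelled library of 10x Genomics (3′ v3.1 kit). With 1 pooled library for each group and tissue fraction, no difference between libraries could be set against variation between mice, so no test was made and no p-value is given. All intervals are exact 95% limits, Poisson for sums of UMIs and binomial for shares of cells, and cover counting error only.

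MHC class II molecules carry peptides from the endosome to the cell surface, where CD4+ T cells read them. *H2-Aa* and *H2-Ab1* encode the chains of I-A, *H2-Eb1* encodes the beta chain of I-E, and *Cd74* encodes the invariant chain that fills the groove until H2-DM, the product of *H2-DMa* and *H2-DMb1*, exchanges its last fragment for a peptide. The transactivator *Ciita*, together with the RFX proteins on the X box and NF-Y on the Y box of the promoters, turns these genes on, and interferon gamma is the best known inducer of *Ciita* outside professional antigen-presenting cells. Enterocytes are not professional antigen-presenting cells, but in the small intestine they are known to make MHC class II in response to the microbiota and to interferon gamma.

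*H2-Aa* (chr17:34282744-34287823, minus strand), *H2-Ab1* (chr17:34257689-34269419, plus strand) and *H2-Eb1* (chr17:34305867-34316674, plus strand) lie side by side in the GRCm38 genome, with *H2-DMa* (chr17:34119541-34139101, plus strand) and *H2-DMb1* (chr17:34153072-34160230, plus strand) nearby, whereas *Ciita* lies at chr16:10480059-10528418 on the plus strand. The 150 bases before the RefSeq start sites of 2 genes that chose the cells and of *H2-DMb1*, which did not, are printed because they hold letters of the elements through which the pathway is known to be regulated, and *H2-DMa* is described in words. Capitals mark the letters GATTGG of the Y box, GCAAC of the X1 core and TGACGTCA of the X2 box on either strand, chosen after the sequences had been looked at.
H2-Aa, GRCm38.p6 chr17:34287824-34287973, minus strand: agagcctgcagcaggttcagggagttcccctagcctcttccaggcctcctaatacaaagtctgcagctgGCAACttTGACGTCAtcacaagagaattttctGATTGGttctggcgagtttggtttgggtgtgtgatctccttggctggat
H2-Eb1, GRCm38.p6 chr17:34305717-34305866, plus strand: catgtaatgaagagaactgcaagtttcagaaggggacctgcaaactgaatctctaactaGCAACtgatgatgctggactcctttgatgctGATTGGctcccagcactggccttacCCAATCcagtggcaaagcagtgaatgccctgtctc
H2-DMb1, GRCm38.p6 chr17:34153041-34153190, plus strand: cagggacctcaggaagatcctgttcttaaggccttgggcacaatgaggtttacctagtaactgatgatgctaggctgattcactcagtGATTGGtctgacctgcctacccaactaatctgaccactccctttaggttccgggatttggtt
In *H2-Aa* the X1 core began 81 bases before the start site, the X2 box 74 and the Y box 49. In *H2-Eb1* the X1 core began 91 bases before the start site and the Y box 60, with another Y box on the minus strand beginning 35 bases before it. In *H2-DMb1* the Y box began 62 bases before the start site, and the other letters searched were not in the window. *H2-DMa* has 2 RefSeq start sites, and neither had a Y box within 150 bases. Upstream of the first, GCAAC began 7 bases before the start on the minus strand, and upstream of the second GATTGG began 199 bases before it. Over the 250 bases upstream in 32851 RefSeq promoters, GATTGG was in 14.6%, GCAAC in 29.9%, TGACGTCA in 1.55%, and both GATTGG and GCAAC in 4.80%. A match is a description only.

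The chosen cells lay almost wholly in the LFD sham libraries. In the crypt-labelled libraries, 661 of 4333 eligible cells were chosen in LFD sham (15.3%, interval 14.2 to 16.4), 24 of 3130 in HFD sham (0.767%, 0.492 to 1.14) and 22 of 5056 in HFD VSG (0.435%, 0.273 to 0.658). In the villus-labelled libraries, 457 of 3360 were chosen in LFD sham (13.6%, 12.5 to 14.8), 15 of 3985 in HFD sham (0.376%, 0.211 to 0.620) and 4 of 3808 in HFD VSG (0.105%, 0.0286 to 0.269). LFD sham therefore held 94.5% of the chosen cells. As a share of cells in which enterocyte markers led, the chosen cells made up 16.6% and 21.7% of LFD sham crypts and villi, 0.832% and 0.534% of HFD sham, and 0.465% and 0.175% of HFD VSG.

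The 4 genes of the rule can also be described without the threshold, which gives other readings of the same values and no further support. Of eligible cells, 9.37% in LFD sham crypts and 17.1% in LFD sham villi had no UMI of the 4 genes, against 65.3% and 77.7% in HFD sham and 70.8% and 74.1% in HFD VSG. In villi fewer cells of HFD VSG than of HFD sham thus lacked a UMI, at median depths of 32527.5 and 13286 UMIs. When each cell was thinned to 1500 UMIs, which left out between 3 and 40 shallower cells per library, 62.0% and 50.3% of LFD sham crypt and villus cells held a UMI, against 13.3% and 7.26% in HFD sham and 8.45% and 3.82% in HFD VSG. Between HFD sham and HFD VSG, the intervals of the share of chosen cells overlapped in both fractions, and the sum of the 4 genes per 10,000 UMIs was 1.51 and 0.958 in crypts and 0.746 and 0.388 in villi, lower in VSG in both.

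**Figure D1:**
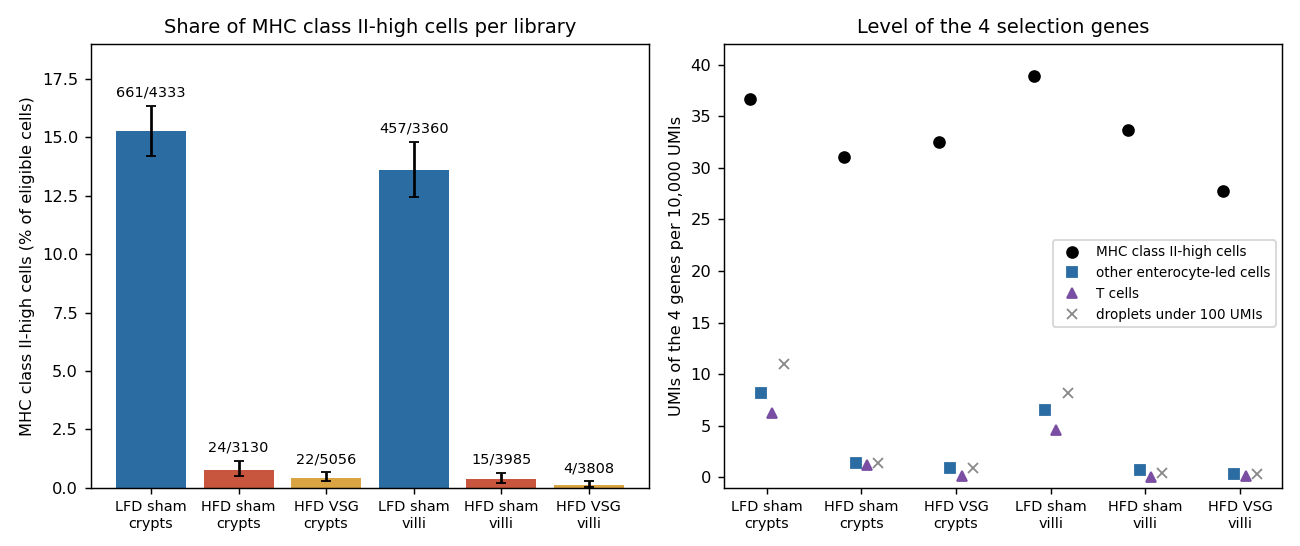
The left panel plots the share of eligible cells chosen as MHC class II-high in each library with exact binomial 95% intervals and the counts behind it, and the right panel plots the summed UMIs of the 4 genes per 10,000 UMIs in 4 kinds of barcode. LFD sham crypts and villi stand at 15.3% and 13.6% and the 4 HFD libraries at 0.105% to 0.767%, and the level of chosen cells on the right is set by the rule.

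Free RNA can give UMIs of these genes to cells that do not express them, and its level followed the groups. In LFD sham crypts the droplets with fewer than 100 UMIs held 10.98 UMIs of the 4 genes per 10,000, T cells held 6.23 and other enterocyte-led cells 8.23, whereas chosen cells, as the rule fixed, held 36.7. In LFD sham villi the values were 8.21 in the droplets, 4.56 in T cells, 6.50 in other enterocyte-led cells and 38.9 in chosen cells. The other enterocyte-led cells of the LFD sham libraries, from which the rule had removed the highest scores, lay below their own droplets and above their T cells. In T cells the enterocyte markers stood at a median of 0.274 and 0.225 of their droplet share in crypts and villi. How much of the 4 genes in other enterocyte-led cells was free RNA was not tested. Of T cells, 62.8% in LFD sham crypts and 46.6% in LFD sham villi held a UMI of these genes, at median depths of 3384 and 3165 UMIs. Of eligible cells it was 90.6% and 82.9%, at medians of 9935 and 13629.5. In both LFD sham libraries the 4 genes in T cells were nearer their droplet level than the enterocyte markers were. Whether T cells held UMIs of the 4 genes through free RNA alone was not tested. In the 4 HFD libraries the droplets held 0.337 to 1.39 and chosen cells 27.8 to 33.7 per 10,000.

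The chosen cells had a median of 8399 UMIs (1475 to 59362), against 15638 in all eligible cells, 34 UMIs of the 4 genes (4 to 233) and 29 *Epcam* UMIs, and only 3 of them held a single *Epcam* UMI. In LFD sham villi they were shallower than the eligible cells, at medians of 7329 and 13629.5 UMIs, and held more mitochondrial UMIs, at medians of 14.41% and 11.002%. In LFD sham crypts the medians were 10883 and 9935 UMIs and 13.8% and 13.0%. The part of depth and mitochondrial share in the gene differences was not tested. *Cd74* made up 48.4% of the UMIs of the 4 genes, *H2-Ab1* 21.2%, *H2-Aa* 18.4% and *H2-Eb1* 12.04%, on a scale of UMIs from the 3′ end that does not grow with gene length. *Cd74* was seen in 100% of the chosen cells, *H2-Ab1* in 98.9%, *H2-Aa* in 97.0% and *H2-Eb1* in 90.9%, and 1038 of 1183 cells held all 4. The mix was alike in the libraries with many cells, with *Cd74* at 48.1% in LFD sham crypts and 48.3% in LFD sham villi, and highest at 65.9% in the 4 cells of HFD VSG villi.

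Enterocyte markers, among them *Alpi*, *Sis* and *Apoa1*, led in 1147 of the chosen cells and in 18418 of the 23672 eligible cells. Also chosen were 16 of 899 Paneth-led cells left by the limit on *Lyz1*, 9 of 340 tuft-led and 5 of 1069 stem-led cells. The same held for 5 of 362 enteroendocrine-led and 1 of 1581 dividing progenitor-led cells. In LFD sham villi the share chosen was 4.78% of Paneth-led, 4.67% of tuft-led and 4.88% of enteroendocrine-led cells. In LFD sham crypts 3 of 41 tuft-led cells were chosen. None of 1003 goblet-led cells was chosen, where 3 cells would have been 0.299%. For the 118 of LFD sham crypts and 212 of LFD sham villi, 3 cells would have been 2.54% and 1.42%. With chosen cells included, the 4 genes stood at 12.99 and 11.62 per 10,000 in enterocyte-led cells of LFD sham crypts and villi. These values lay above the 10.98 and 8.21 of the droplets. Without the chosen cells they were 8.23 and 6.50, below the droplets. With chosen cells included, the other classes of LFD sham crypts lay at 2.64 in enteroendocrine-led to 7.03 in Paneth-led cells. Those of LFD sham villi lay at 1.79 to 5.49, and all these other classes lay below the droplets of their library. The fraction labels did not match the markers, because stem and dividing markers led in 49 and 69 of the 4333 eligible cells of LFD sham crypts but in 254 and 422 of the 3360 of LFD sham villi, so the labels are used here only as names.

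Markers of professional antigen-presenting cells were few in the chosen cells. The rule had already required an *Epcam* UMI and no UMI of *Ptprc* or *Cd79a*. It thus fixed part of this outcome, and the low counts are a description. Of 17 myeloid and dendritic markers, 10 were at 0 UMIs in all 1183 cells, among them *Csf1r*, *C1qa*, *C1qb*, *C1qc*, *Xcr1*, *Flt3*, *Zbtb46*, *Ccr7*, *Cd209a* and *Clec9a*. The list's summed level was 0.0629 per 10,000 UMIs in chosen cells of LFD sham crypts against 0.079 in the other eligible cells, and 0.111 against 0.126 in LFD sham villi. B and plasma cell markers such as *Ms4a1*, *Ebf1* and *Igkc* were at 0 in 1114 chosen cells, and most of the others were in LFD sham villi. There 14.4% of chosen cells held a UMI of that list against 13.1% of other eligible cells, with summed levels of 0.251 and 0.0991 per 10,000, whereas in LFD sham crypts 0.454% of chosen and 0.545% of other cells held one. All 6 chosen cells with at least 3 such UMIs came from LFD sham villi, and the cells with the 3 highest scores of all, at 124, 119 and 111 per 10,000, were among them with 15, 3 and 22 B cell UMIs and only 2, 1 and 2 *Epcam* UMIs. Those 3 scores cannot be told apart from B lymphocyte RNA. The 14 T and innate lymphocyte markers were at 0.442 per 10,000 in chosen cells of LFD sham villi against 0.261 in other cells, and at 0.0688 against 0.0792 in LFD sham crypts. All 7 chosen cells with 3 or more such UMIs came from LFD sham villi. Doublets were not called, but 895 chosen cells held no UMI of these immune markers when *Igkc*, *Ighm*, *Igha*, *Jchain* and *Iglc2* were left out of the count. Without eligible cells that held a UMI of the markers so counted, the shares chosen were 15.1% and 14.5% in LFD sham crypts and villi. Over the 4 HFD libraries the share was 0.411%.

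The genes of H2-DM, which loads MHC class II, were higher in the chosen cells than in their neighbours in every library. Over all 9867 genes tested, 7 genes (0.0709%) were more than 2-fold higher than in all other eligible cells of the same library in 6 of 6 libraries, and 70 (0.709%) were more than 2-fold lower. The 7 were the 4 genes of the rule, *H2-DMa*, *H2-DMb1* and *Tmigd1*, an adhesion protein of the epithelial brush border. The 4 chosen cells of HFD VSG villi gave 13 UMIs each of *H2-DMa* and *H2-DMb1* and 4 of *Tmigd1*, whose log2 ratio to other enterocyte-led cells there had an interval of -0.10 to 3.14. With every cell thinned to 1500 UMIs, 2 of the 7 genes were still called. Against other enterocyte-led cells, 6 genes (0.0608%) were higher in 6 of 6 libraries and 12 (0.122%) were lower. This left goblet-, stem- and Paneth-led cells out of the comparison cells only. All 1183 chosen cells were kept, of which 1147 were led by enterocyte markers. *H2-DMb1* stood at 93.9, 70.1 and 68.8 counts per 1000000 UMIs (CPM) in chosen cells of LFD sham, HFD sham and HFD VSG crypts, against 25.8, 4.39 and 2.24 in other enterocyte-led cells. In the villus-labelled libraries it stood at 93.1, 128 and 124 CPM, against 26.4, 2.70 and 1.86. Its level in chosen cells thus lay between 68.8 and 128 CPM in all 6 libraries, whose chosen cells were cut at the same score. *H2-DMa*, whose product pairs with that of *H2-DMb1*, stood at 77.6, 66.2 and 46.9 CPM in crypts and 66.5, 88.8 and 124 CPM in villi, in the same order of libraries. Its log2 ratio to other enterocyte-led cells was 0.97 in LFD sham villi and 1.44 to 3.70 in the other 5 libraries.

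Other parts of the class II pathway were measured at lower levels. *Ciita* was at 32.4 CPM in chosen cells of LFD sham crypts and 25.7 in LFD sham villi, against 10.2 and 13.0 in other enterocyte-led cells, log2 ratios of 1.67 (interval 1.45 to 1.90) and 0.99 (0.68 to 1.29). A *Ciita* UMI was seen in 28.1% and 19.9% of these chosen cells, while the HFD libraries held 0 to 6 *Ciita* UMIs in chosen cells. The RFX subunits, which bind the X box with *Ciita*, gave 187 UMIs of *Rfxap*, 144 of *Rfxank* and 21 of *Rfx5* over all chosen cells. *H2-Oa* and *H2-Ob*, whose product restrains H2-DM in B cells, gave 1 and 5 UMIs, and *H2-DMb2* gave 2. Counts of *H2-DMb1* and *H2-DMb2*, near-identical copies, may be split by the counting, so the values of both are uncertain to that extent. Of the 10 genes in the list of other class II genes and regulators, 5 passed the filter on UMIs and 3 of those were more than 0.5 higher on the log2 scale in both LFD sham libraries, where 104 of all genes (1.05%) were higher and 899 (9.11%) lower.

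Genes for costimulation were at or near 0. *Cd80* gave 0 UMIs in 1183 cells, which allows up to 0.262 CPM, *Cd86* and *Cd40* gave 1 UMI each, and *Pdcd1lg2*, *Vtcn1* and *Tnfsf4* gave 0. *Icosl*, the ligand of ICOS, was seen as 1 UMI in each of 47 chosen cells, and *Cd274*, which encodes PD-L1, as 11 UMIs in 7 cells. The proteases that cut the invariant chain and antigens were mixed. Of 10 endosomal genes 8 were tested, none was higher by 0.5 in both LFD sham libraries and 1 was lower. Of all genes tested, 1.05% were higher and 9.11% lower. Cathepsin S, from *Ctss*, which removes the invariant chain, was at 153 and 147 CPM in chosen cells of LFD sham crypts and villi against 127 and 86.4, whereas *Ctsh* was at 11.4 and 18.0 against 24.1 and 64.4. The list's median log2 ratio was 0.08 in crypts and 0.04 in villi, against medians of -0.05 and -0.22 over all genes tested.

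Of 19 tested genes for MHC class I, which presents peptides from the cytosol to CD8+ T cells, 2 were more than 0.5 higher in both LFD sham libraries and none lower. Of all genes tested, 1.05% were higher and 9.11% lower by this measure. The list medians were 0.23 in crypts and 0.45 in villi. *H2-T23*, a nonclassical class I gene, was at 173 and 164 CPM in chosen cells of LFD sham crypts and villi against 110 and 69.7 in other enterocyte-led cells. *H2-D1* was at 554 and 651 CPM against 374 and 288, and its partner *B2m* had log2 ratios of 0.36 and 1.23. *Tap1*, a subunit of the peptide pump, had ratios of 0.37 and 0.50, while the peptide trimmer *Erap1* stood at -0.34 and -0.88.

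The interferon gamma list was centred near 0 in the chosen cells. Of its 21 genes 10 were tested, and 1, *Zbp1*, was more than 0.5 higher in both LFD sham libraries, at 21.6 and 27.8 CPM against 10.0 and 6.67. None of the list was lower, where 1.05% of all genes were higher and 9.11% lower. *Irf1*, a transcription factor that acts upstream of *Ciita*, had log2 ratios of -0.17 and -0.57. The GTPase *Igtp* was at 13.1 CPM against 11.6 in crypts, but at 1.26 CPM, from 6 UMIs, against 9.03 in villi. *Gbp2*, *Gbp4*, *Gbp5* and *Cxcl9* had at most 4 UMIs in chosen cells of either library. The list medians were 0.06 and -0.08. For the type I and III interferon list, medians were 0.10 and 1.02, with *Irf7* at 85.6 and 88.9 CPM against 66.9 and 30.0, and *Isg15* at 29.7 and 30.1 CPM against 19.7 and 9.51, and 2 of 13 tested genes were higher in both libraries. Against other enterocyte-led cells of like villus-tip share, the median of that list was -0.04 in crypts and 0.34 in villi.

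Genes that the microbiota is known to induce in the epithelium were among those that differed most outside the class II pathway. *Saa1*, an acute phase protein of the gut that binds retinol, was at 86.3 CPM in chosen cells of LFD sham crypts and 122 CPM in villi, against 8.62 and 9.39 in other enterocyte-led cells, log2 ratios of 3.32 and 3.70. Against cells of like villus-tip share the ratios were 3.22 and 2.17, and the droplets held 13.02 and 14.99 CPM. It was seen in 18.6% and 30.2% of these chosen cells, against 4.97% and 6.10% of other enterocyte-led cells, and no UMI of it was found in the chosen cells of the 4 HFD libraries. *Saa2*, a near-identical copy, gave 4 and 13 UMIs in chosen cells of the LFD sham libraries, and reads of both may be split by the counting. *Nos2*, the inducible nitric oxide synthase, was at 67.7 and 107 CPM against 18.4 and 23.8. *Cyba*, a subunit of NADPH oxidases, was at 137 and 212 CPM against 50.9 and 72.2. *Reg3g* and *Reg3b*, secreted antimicrobial lectins, were at 8370 and 13311 CPM and at 26476 and 39545 CPM in chosen cells, with log2 ratios of 1.55 and 1.34 for *Reg3g* and 1.31 and 1.03 for *Reg3b*. In HFD VSG crypts the ratio of *Reg3g* was -0.52 (-0.70 to -0.35) and that of *Reg3b* 0.02 (-0.04 to 0.08). In the other HFD libraries the ratios were 1.07 to 1.40 for *Reg3g* and 0.38 to 1.87 for *Reg3b*. *Ubd*, a ubiquitin-like protein induced by cytokines that stayed under the filter on UMIs, was at 34.1 and 83.3 CPM against 5.26 and 3.94.

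Not all antimicrobial genes followed. *Reg3a*, of the same family, had log2 ratios of -0.98 and -1.82, *Reg1* of -1.80 and -3.90, and *Lypd8*, which keeps flagellated bacteria away, of -0.24 and -1.15. Of 14 tested genes in the list, 6 were more than 0.5 higher in both LFD sham libraries and 2 were lower, where 1.05% of all genes were higher and 9.11% lower, and the medians were 0.65 and 0.39. Against enterocyte-led cells of like villus-tip share the median was 0.66 in crypts and -0.23 in villi, so the list's direction in villi differed between the comparisons. Genes more than 2-fold higher in both LFD sham libraries numbered 19 (0.193%) and genes more than 2-fold lower 236 (2.39%). Beside the genes of the rule and those given above, the 19 held the complement gene *C2* (1.36 and 1.62), *Alpk1*, a sensor of bacterial sugars (1.31 and 1.60), *Clca3a2* (1.57 and 2.42), *Clca3b* (1.18 and 1.06), *Cpe* (1.48 and 2.92), *Ceacam10* (2.31 and 1.30) and *Nav1* (1.98 and 1.23). Against all other eligible cells *C2*, *Alpk1* and *Clca3a2* stayed higher in both libraries, at 1.29 to 1.92. There *Clca3b* stood at -1.25 and -2.18, *Cpe* at -2.19 and -1.52, *Nav1* at -1.97 and -2.89 and *Ceacam10* at 0.08 and -1.26. The chosen cells included cells led by other classes, which the enterocyte-led comparison cells did not. *Cpe* rested on 13 and 22 UMIs in chosen cells and *Nav1* on 4 and 5. The ratio of *Nav1* in villi was 0.05 against cells of like villus-tip share. These 7 genes were chosen for naming after their values were seen.

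**Figure D2:**
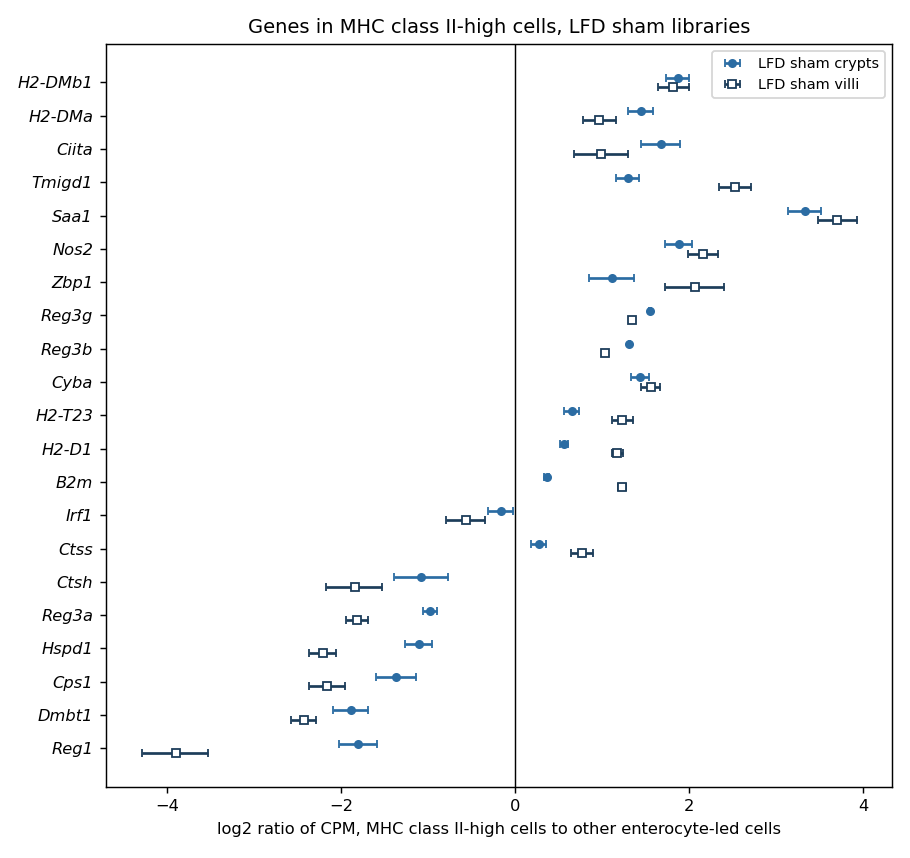
Points are log2 ratios of CPM between chosen cells and other enterocyte-led cells in LFD sham crypts (filled circles) and LFD sham villi (open squares), with exact 95% counting intervals. *H2-DMb1*, *Saa1*, *Nos2* and *Tmigd1* lie above 0 in both, and *Reg1*, *Dmbt1*, *Cps1* and *Hspd1* lie below 0 in both.

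Against all other eligible cells the 15 lowest genes were the goblet genes *Agr2*, *Fcgbp*, *Spink4*, *Muc2*, *Zg16*, *Clca1* and *Tff3*, the stem genes *Olfm4* and *Slc12a2*, the division gene *Mki67*, and *Dmbt1*, *Cps1*, *Ptma*, *Rpl12* and *Hspd1*. In LFD sham villi *Olfm4* and *Spink4* had log2 ratios of -3.05 and -3.48 in that comparison but of 1.11 and 0.12 against other enterocyte-led cells. In LFD sham crypts the ratios against other enterocyte-led cells were -1.16 and -1.01. The chosen cells of LFD sham villi included 5 stem-led and 15 Paneth-led cells, and the enterocyte-led comparison cells had none. The part of those cells in the ratios was not tested. The 12 genes lower in 6 of 6 libraries against other enterocyte-led cells were *Cps1*, *Dmbt1*, *Gsta1*, *Hspd1*, *Me1*, *Reg1* and the ribosomal genes *Rpl12*, *Rpl14*, *Rpl3*, *Rps18*, *Rps2* and *Rpsa*. *Dmbt1*, a mucosal scavenger protein, stood at 25.0, 11.7 and 15.6 CPM in LFD sham, HFD sham and HFD VSG crypts, against 92.7, 47.3 and 82.2. In villi it stood at 91.2, 27.8 and 47.8 CPM, against 492, 142 and 412, and its HFD values in chosen cells rest on 3 to 5 UMIs a library. Of 83 ribosomal protein genes, 71 were more than 0.5 lower in both LFD sham libraries and none higher, with medians of -0.73 and -1.68. Of all genes tested, 9.11% were lower and 1.05% higher. Fat and nutrient genes differed less in crypts than in villi. *Fabp1*, a fatty acid binding protein, had ratios of -0.23 and -1.13, *Apoa4* of 0.07 and 1.38, and *Enpp7*, a sphingomyelinase of the brush border, of 0.60 and 1.86. List medians were 0.09 and 0.57 for 18 fat absorption genes and 0.25 and 0.63 for 19 middle-villus transporters and peptidases, with 1 and 0 genes higher by 0.5 in both LFD sham libraries. Against cells of like villus-tip share the medians were 0.07 and 0.13 for fat absorption and 0.14 and 0.44 for middle-villus genes.

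Genes of the bile acid and ileal programme were mixed. *Slc10a2*, the ileal bile acid importer, was among the 15 highest genes over 6 libraries, at 7.24, 54.5 and 18.8 CPM in LFD sham, HFD sham and HFD VSG crypts against 5.11, 6.36 and 8.41. In villi it stood at 7.32, 72.2 and 28.7 CPM against 3.21, 5.45 and 3.12, but the HFD values rest on 14 and 6 UMIs in crypts and 13 and 3 in villi, of which 1 cell gave 50% and 50%, and 76.9% and 66.7%. *Slc51b*, a subunit of the bile acid exporter, had log2 ratios of 0.54 to 1.15 in the 6 libraries, and *Slc5a8*, a transporter of short-chain fatty acids, of 0.70 to 2.22. *Ocm*, *Enpp7* and *Aspa* completed the 15 highest genes, with log2 ratios of 0.50 to 2.53. *Fabp6*, the ileal bile acid binding protein, went the other way in LFD sham, at -0.39 and -1.47. Of 7 distal-segment genes tested, 2 were higher by 0.5 in both LFD sham libraries and none lower, and of 6 proximal-segment genes none was higher or lower, where 1.05% of all genes were higher and 9.11% lower. Among genes for contacts with intraepithelial lymphocytes, such as the butyrophilin-like *Btnl1* and *Btnl6*, none of 10 was higher or lower in both, with medians of 0.12 and 0.33.

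The place of the chosen cells along the villus was described with gene lists that do not hold the 4 genes but were chosen with earlier results known. When enterocyte-led cells were cut into quintiles by their summed share of 10 villus-tip genes, such as *Ada*, *Nt5e* and *Clca4a*, the share of chosen cells in LFD sham villi went from 4.74% in the lowest quintile through 13.9%, 24.1% and 38.1% to 55.5% in the highest. In LFD sham crypts it went from 9.01% through 14.5%, 18.2% and 17.8% to 17.4%, a rise that ended at the middle quintile. Over quintiles by 19 middle-villus genes it went from 3.91% to 19.98% in LFD sham crypts and from 7.08% to 28.0% in LFD sham villi, rising at each step. Depth moved with the tip list, with medians of 15831 UMIs in the lowest and 6488 in the highest quintile of LFD sham villi and of 15286 and 6199.5 in LFD sham crypts. Over the middle-villus quintiles it went from 6483 to 14990 UMIs in LFD sham crypts and from 16027 to 13629.5 in LFD sham villi. Over quintiles of depth, the share of chosen cells fell in LFD sham villi from 32.5% and 32.7% in the 2 shallowest to 8.70% in the deepest, but stayed between 14.5% and 18.5% in LFD sham crypts. The part of depth in these results was not tested. Relative to cells of like villus-tip share, 25 genes (0.253%) were more than 2-fold higher and 75 (0.76%) lower in both LFD sham libraries. In the HFD libraries no quintile of either list held more than 4.17% chosen cells, and in HFD VSG villi the highest middle-villus quintile held only 5 cells.

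**Figure D3:**
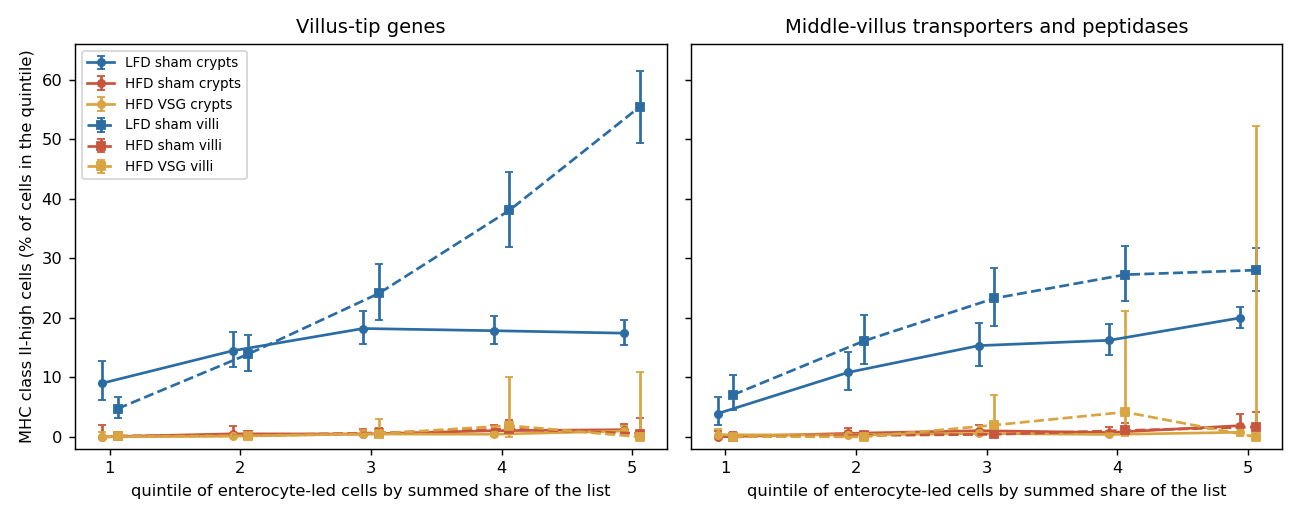
Enterocyte-led cells of all libraries were cut into quintiles by their summed share of villus-tip genes (left) or middle-villus genes (right), and each point is the percentage of cells in the quintile that were chosen, with exact binomial 95% intervals. The LFD sham villi climb from 4.74% to 55.5% over the tip quintiles, the LFD sham crypts end at 17.4%, and the HFD libraries stay near 0.

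The chosen cells also differed among themselves. In LFD sham crypts, *Saa1* was at 24.5 CPM in the cells below the median score and 149 CPM in the cells above it, and in LFD sham villi at 88.9 and 156 CPM. *Ubd* went from 13.9 to 54.5 CPM in crypts and from 59.1 to 109 CPM in villi, and *Tmigd1* from 52.1 to 114 and from 88.5 to 132. *H2-DMa* was at 77.6 and 77.7 CPM in crypts and 61.6 and 71.8 in villi, and *H2-DMb1* at 88.9 and 98.98 in crypts and 82.4 and 104 in villi, where the interval of its log2 ratio was 0.07 to 0.62. *Ciita* was at 36.3 and 28.5 CPM in crypts and 25.7 and 25.8 in villi, with intervals that included 0. The interferon-induced GTPases went the other way in crypts, with *Igtp* at 19.3 CPM below and 6.69 above the median score, *Irgm2* at 14.9 and 2.63 and *Gbp7* at 9.19 and 1.43. In LFD sham villi these 3 genes gave 6, 12 and 6 UMIs in all and could not be compared. The cells of a library were split by the score that chose the cells, so these values are descriptions.

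Over all enterocyte-led cells, where no threshold on class II had been applied, *H2-DMa*, *H2-DMb1* and *Ciita*, which did not enter the rule, were lower in both HFD groups. Of the list of other class II genes and regulators, 3 of 5 tested were more than 0.5 lower on the log2 scale in HFD sham than in LFD sham in both fractions and none higher, where 162 of all genes (1.83%) were lower and 165 (1.86%) higher. For HFD VSG it was 3 of 6 lower and none higher, where 291 of all genes (3.05%) were lower and 976 (10.2%) higher. *H2-DMb1* stood at 37.2, 4.88 and 2.51 CPM in LFD sham, HFD sham and HFD VSG crypts and at 37.1, 3.24 and 2.02 in villi. The log2 ratio of HFD sham to LFD sham was -2.93 (-3.17 to -2.71) in crypts and -3.52 (-3.79 to -3.26) in villi. Between HFD VSG and HFD sham it was -0.96 (-1.26 to -0.65) and -0.68 (-1.02 to -0.34) in the 2 fractions, between single libraries and near free RNA, since droplets of HFD sham and HFD VSG held 5.45 and 3.27 CPM in crypts and 2.13 and 1.97 in villi. *H2-DMa* stood at 36.8, 9.09 and 8.14 CPM in crypts and 39.1, 8.74 and 9.71 in villi, and *Ciita* at 13.8, 2.18 and 2.21 CPM and 15.02, 2.35 and 2.21 CPM. Free RNA followed the same split by diet, with droplets of LFD sham crypts and villi at 30.5 and 20.5 CPM for *H2-DMb1*, 31.05 and 26.1 for *H2-DMa* and 11.02 and 11.7 for *Ciita*. In the HFD droplets *H2-DMa* lay between 6.38 and 10.9 CPM and *Ciita* between 0.545 and 3.72. How much of the difference between diets in these cells is free RNA was not tested. For *H2-DMa* and *Ciita* the HFD sham and HFD VSG libraries differed by less than counting error, with log2 ratios of HFD VSG to HFD sham of -0.16 (-0.36 to 0.04) and 0.15 (-0.03 to 0.34) for *H2-DMa* and 0.02 (-0.38 to 0.43) and -0.09 (-0.45 to 0.28) for *Ciita*.

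Microbe-induced genes went both ways between diets, and no tested gene of the interferon lists was higher in HFD in both fractions. Of 13 microbe-induced and antimicrobial genes tested, 4 were lower and 1 was higher in HFD sham than in LFD sham in both fractions, and in HFD VSG 5 of 15 were lower and 3 higher. Of 11 interferon gamma genes 3 were lower in each HFD group, and of 13 type I and III interferon genes 3 were lower in HFD sham and 5 in HFD VSG, with none higher. Of all genes tested, 1.83% were lower and 1.86% higher in HFD sham, and 3.05% were lower and 10.2% higher in HFD VSG. The interferon gamma medians in crypts and villi were -0.18 and -0.16 in HFD sham and -0.33 and -0.32 in HFD VSG, and those of type I and III interferon were -0.87 and -0.39, and -0.51 and -1.04. All 4 genes taken here to mark damaged droplets were lower in HFD VSG than in LFD sham in both fractions, and their part in these counts was not tested. *Saa1* stood at 21.3, 2.18 and 1.39 CPM in crypts and 27.7, 0.266 and 0.382 in villi, and *Igtp* at 11.9, 0.946 and 2.72 CPM and 7.78, 1.89 and 1.67 CPM. *Cyba* went the other way after VSG, at 65.5, 51.2 and 89.2 CPM in crypts and 94.4, 52.1 and 139 in villi. *Nos2* stood at 26.7, 17.4 and 29.4 CPM in crypts and 37.0, 11.2 and 6.01 in villi. The class I partner *B2m* differed less, at 1099, 907 and 947 CPM and 688, 598 and 458 CPM. *Ifng*, which encodes interferon gamma, gave 16 UMIs in 137 T cells of LFD sham crypts and 103 UMIs in 667 T cells of LFD sham villi, 26.9 and 35.8 CPM. In HFD sham it gave 2 UMIs in 84 T cells of crypts (6.30 CPM) and 0 in 4 T cells of villi, and in HFD VSG 2 in 69 and 20 in 549, or 5.57 and 3.82 CPM. The part of *Ifng* in the difference between diets was not tested.

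**Figure D4:**
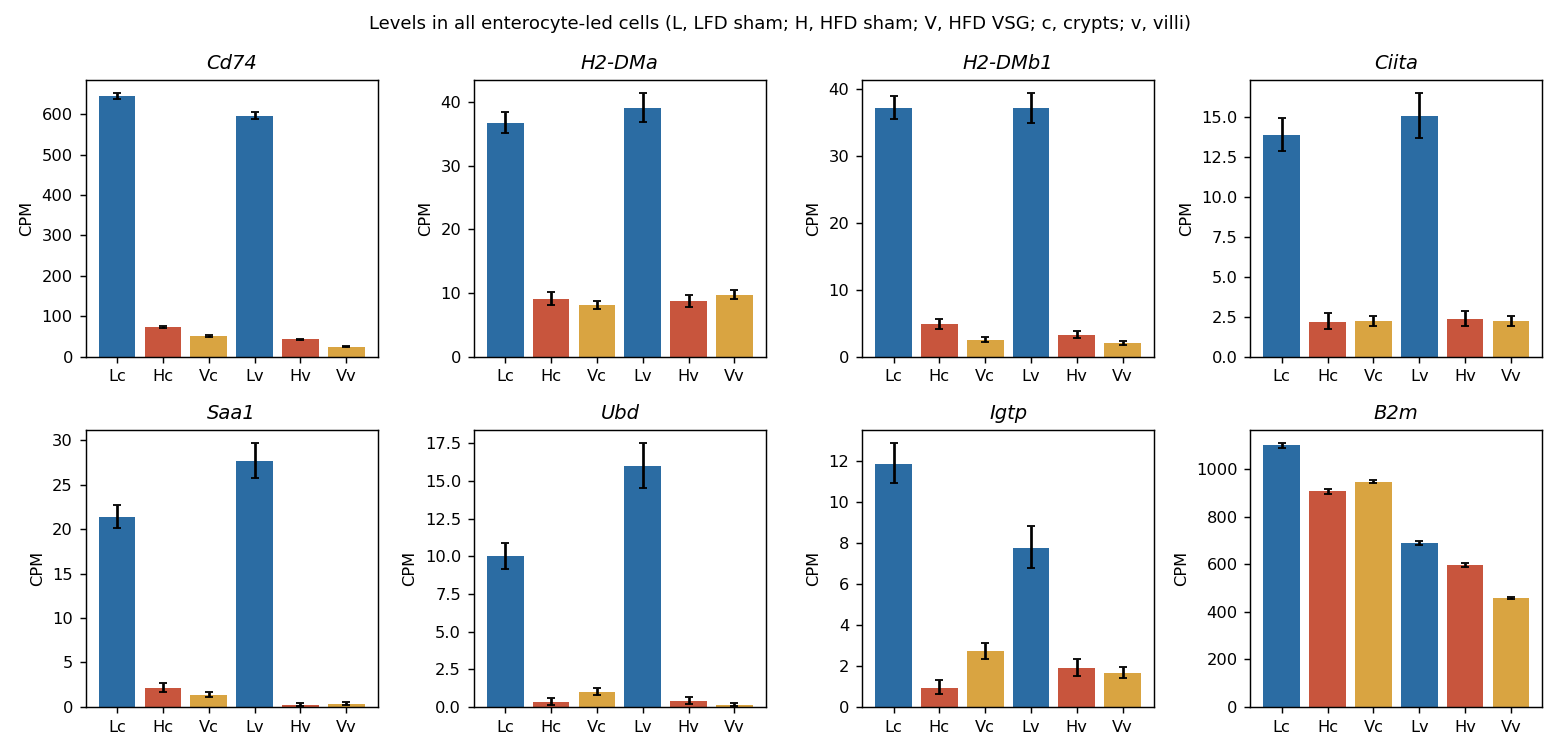
Bars are CPM of summed UMIs over all enterocyte-led cells of each library with exact Poisson 95% intervals, in LFD sham (L), HFD sham (H) and HFD VSG (V) crypts (c) and villi (v). Class II genes, *Saa1*, *Ubd* and *Igtp* are several times higher in both LFD sham libraries, while *B2m* differs less.

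Within the chosen cells, conditions could be compared only through small numbers of HFD cells, and the contrasts to LFD sham and between HFD groups share libraries. In crypts, 479 of 4311 genes (11.1%) were more than 0.5 higher on the log2 scale in HFD sham than in LFD sham and 824 (19.1%) lower, and in villi 572 (19.1%) and 507 (16.9%) of 2992. For HFD VSG against HFD sham, 47 (11.9%) and 24 (6.08%) of 395 genes were higher and lower in crypts and 82 (38%) and 43 (19.9%) of 216 in villi. For HFD VSG against LFD sham the counts were 723 (16.7%) and 586 (13.5%) of 4335 in crypts and 790 (26.8%) and 893 (30.2%) of 2953 in villi. Counting only genes whose interval left out 0, the numbers higher and lower against LFD sham were 242 and 266 for HFD sham and 461 and 233 for HFD VSG in crypts, and 389 and 185, and 517 and 321, in villi, so the balance in HFD VSG villi turned. *H2-DMa* and *H2-DMb1* had intervals that included 0 in all 6 contrasts, for example -0.42 (-1.18 to 0.25) for *H2-DMb1* between HFD sham and LFD sham crypts, so a difference in these cells was not detectable at this depth. The rule also cut all libraries at the same score, so likeness between conditions in genes that move with the score may be set in part by the rule.

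*Tm4sf4*, a tetraspanin of the intestine, was highest in HFD sham against LFD sham crypts, at 288 against 18.99 CPM in chosen cells and at 236 against 31.0 CPM in other enterocyte-led cells. It was as high in HFD VSG crypts, at 275 CPM. *Plb1*, a brush border phospholipase, was at 451 CPM in HFD sham and 582 in HFD VSG crypts against 151 in LFD sham, and at 799 and 364 against 165 CPM in villi, where 71.1% of the HFD VSG UMIs came from 1 cell. *Bco1*, which cleaves beta-carotene to retinal, was at 15.6 CPM in chosen cells of both HFD crypt libraries against 118 in LFD sham, from 4 and 5 UMIs. In villi its 4 and 2 UMIs in HFD sham and HFD VSG came from 1 cell of each library. *Saa1* gave 0 UMIs in HFD chosen cells against 727 and 582 in LFD sham. With 0 set to 3 UMIs, the log2 ratio of HFD sham to LFD sham crypts was at most -2.89. The tip gene *Ada* gave 0 UMIs in HFD sham villi against 1426 in LFD sham villi, a log2 ratio of at most -4.16, and *Ly6m* and *Enpp3* gave 0 against 1412 and 991. Of enterocyte-led chosen cells, 152 of 427 in LFD sham villi but 1 of 15 in HFD sham villi lay in the highest villus-tip quintile. Over all enterocyte-led cells of villi, the median log2 ratio of the villus-tip genes between these groups was -0.46. The part of place along the villus in these values was not tested. *Aldh1a1*, which makes retinoic acid, was at 477 against 99.8 CPM in HFD sham and LFD sham villi and *Mep1a* at 266 against 68.0, whereas 60.0% of the 35 UMIs of *Plin2* in HFD sham villi came from 1 cell.

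Between HFD VSG and HFD sham crypts, *Lypd8* was higher in the chosen cells, at 588 against 175 CPM, and *Reg3g* lower, at 851 against 3425 CPM. In all enterocyte-led cells of crypts *Reg3g* stood at 1221 against 1644 CPM. In villi *Reg3g* was at 5368 against 3897 CPM in chosen cells, with 68.8% of the HFD VSG UMIs from 1 cell, and at 2032 against 1799 CPM in all enterocyte-led cells. The other lowest genes of the crypt contrast were *Gm42418*, *AY036118* and *Lars2*, which mark damaged droplets, at log2 ratios of -2.12, -2.18 and -1.65, and the transporter *Abcb1a* at -1.01. In villi the 5 highest genes of HFD VSG against HFD sham were ribosomal protein genes, and 66.2% to 72.3% of their UMIs came from 1 of the 4 cells.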

How the data were processed

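RNA of single jejunal cells was measured in 6 libraries. Per the submitters' processing notes, Cell Ranger 6.0.0 was used, with the mm10 genome, and the authors deposited raw UMI counts, in one matrix with all droplets and another with barcodes called as cells. Depth in called barcodes ranged from 60522766 to 155522445 UMIs a library and in median from 3622.5 to 15202 UMIs a barcode, and 17 to 43 barcodes were shared between any 2 libraries. The deposited counts had free RNA, doublets and damaged cells left in.

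Cells were chosen by the rule given in the report, after filters that left 26696 barcodes. The class whose markers had the largest summed share, scaled to the 99th percentile of that share, led a cell, a definition made after seeing the data. T cells were barcodes with at least 2 *Cd3e* and *Cd3g* UMIs. UMIs were summed over cells within a library, expressed as CPM (sums under 3 were raised to 3) and compared as log2 ratios for genes averaging 100 UMIs or more over the sums compared. A higher call also needed 3 UMIs in the chosen cells, a condition added after seeing the data. Against cells of like villus-tip share, the comparison cells were weighted to the quintiles of the chosen cells. The chosen cells and the 20 gene lists were set with earlier results of these data known, so no list is independent support. Named genes were those of the lists, the 15 highest and 15 lowest genes over the 6 libraries, and the 5 highest and 5 lowest of each contrast. Some of these genes are not reported here.

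With 1 library per group no test was run, and the calculation was tested on simulated data. Doublets were not called, and an alternative left out the highest 10% of UMIs. Other alternatives were thinning to 1500 UMIs, the top 2.5% and 10%, and other filters on genes, mitochondrial UMIs and *Epcam*. Free RNA subtracted, other totals and scaling, and other minimum counts and sizes were also used. A further alternative was cells without immune markers, apart from immunoglobulin genes and *Jchain*. Promoters came from RefSeq (GRCm38.p6) and gene positions from GENCODE (GRCm38). Python 3.11.15 was used with numpy 2.4.6, scipy 1.17.1, pandas 2.3.3 and matplotlib 3.10.9.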

Additional observations from a re-analysis of the deposited data

Results flagged for a closer look

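Among cells of the LFD sham mice, the median log2 ratio of the 10 villus-tip genes between MHC class II-high cells and other enterocyte-led cells was -0.29 in the crypt-labelled library and 1.71 in the villus-labelled library. The value stood out because the same contrast had opposite signs in the 2 fractions. The difference was not tested, since each fraction is 1 library.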

How the results depend on the processing

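No paired analysis was possible because each group is 1 library, and no replicate could be left out. The share of chosen cells in LFD sham crypts, LFD sham villi and the 4 HFD libraries, and the share of chosen cells that came from LFD sham, were 17.9%, 16.2%, 0.818% and 91.0% with cells thinned to 1500 UMIs. They were 7.20%, 7.74%, 0.119% and 96.8% for the top 2.5%, 30.1%, 24.0%, 1.60% and 89.2% for the top 10%, and 13.0%, 18.6%, 0.304% and 95.9% among enterocyte-led cells only. With at most 10% mitochondrial UMIs they were 23.3%, 10.7%, 1.10% and 83.7%. With a minimum of 1500 genes the share in LFD sham crypts was 16.4%. With free RNA subtracted at the fraction seen in T cells, the share in the HFD libraries was 0.582% and that from LFD sham 92.1%.

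Against all other cells, 7 genes were higher and 70 lower in 6 of 6 libraries. These counts were 6 and 12 against other enterocyte-led cells, and 2 and 15 when cells were thinned to 1500 UMIs, an alternative that leaves fewer UMIs. Without the minimum of 3 UMIs in chosen cells, 15 were higher. In both LFD sham libraries alone, 18 were higher and 1155 lower, against other enterocyte-led cells 19 and 236, and against cells of like villus-tip share 25 and 75. These last 4 alternatives were chosen after seeing the data. Between conditions, 1303, 71 and 1309 genes passed 0.5 in crypts (HFD sham to LFD sham, HFD VSG to HFD sham, HFD VSG to LFD sham) and 1079, 125 and 1683 in villi. With a minimum of 300 UMIs the counts were 412, 15 and 471 and 329, 16 and 610, and with a size of 1 they were 318, 10 and 222 and 253, 72 and 675, both by construction. Some single genes and list medians in chosen cells of LFD sham changed sign with the comparison cells, and the alternatives for list medians were chosen after seeing the data. In villi *Olfm4* went from -3.05 against all other cells to 1.11 against other enterocyte-led cells, and *Spink4* from -3.48 to 0.12. In the latter comparison the chosen cells still included those led by other classes. Against cells of like villus-tip share, medians turned to -0.23 for microbe-induced genes in villi, -0.46 for villus-tip genes in villi, -0.044 for type I and III interferon and -0.011 for interferon gamma genes in crypts, and -0.039 and 0.019 for epithelial markers in crypts and villi, and -0.059 for genes of damaged droplets in villi. Against all other cells they turned to 0.084 for interferon gamma genes in villi and 0.062 and 0.63 for proximal-segment genes in crypts and villi. The 4, 15, 22 and 24 chosen cells of the HFD libraries limit what can be said of conditions within them, and free RNA differed between libraries.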

Other observations

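The enteroendocrine and tuft lists are not set against other enterocyte-led cells, because that comparison leaves out the cells those genes lead. Of the chosen cells, 5 were enteroendocrine-led and 9 tuft-led. The enteroendocrine gene *Cpe*, named above among the genes higher in that comparison, has the same limit. Against all other eligible cells the enteroendocrine list had medians of -2.44 and -1.75 in LFD sham crypts and villi. Against other enterocyte-led cells the 8 goblet genes had medians of -0.92 and -0.37. Of these genes 3 were more than 0.5 lower in both libraries, where 9.11% of all genes were lower.

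Epithelial markers gave medians of 0.05 and -0.08 over 11 genes. Genes of damaged droplets gave -0.35 and 0.32, and stromal markers were held by 0.423% of chosen cells against 1.44% of other eligible cells.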
